A study of Mus musculus with 3 samples.

Results

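The open chromatin around 8 mouse genes of mitochondrial iron and haem transport was described in zinc-treated MEL cells. Of these, Iscu builds iron-sulphur clusters from the imported iron, and the others serve the passage of iron, glycine, porphyrins or haem across membranes. MEL is an immortalised mouse erythroleukaemia line, blocked at an early erythroid stage, and zinc dichloride is the treatment the labels give. The genes were taken by name from 21938 protein-coding genes of the mm10 annotation. They were Slc25a37, Slc25a28, Iscu, Abcb10, Tmem14c, Slc25a38, Abcb6 and Flvcr1. DNase-seq was used, in which DNase I cuts accessible DNA and the cut ends are sequenced. All 3 libraries came from 1 group, treated for 24 hours at a dose of 125 in a unit whose prefix is unreadable in the labels. Biological replicate 1 had 2 libraries and biological replicate 2 had 1. Untreated cells were not analysed here, so the values describe zinc-treated cells and none measures a response to zinc. Each replicate had 1 list of 150 bp peaks and 1 list of hotspots, which are broader stretches enriched in cuts. The lists came from bulk cultures, in which a site open in few cells and a site weakly open in many cannot be told apart.

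Haem is made partly in the mitochondrial matrix and partly in the cytosol, so its substrates and intermediates must cross the mitochondrial membranes. Iron enters through the mitoferrins, glycine through Slc25a38, and porphyrin intermediates return with the help of further membrane proteins. In erythroid precursors this traffic is heavy, since most of the iron taken up by the cell goes to haemoglobin. An accessible promoter or distal site marks DNA that regulatory proteins can reach, and does not by itself measure expression.

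The replicate 1 list held 304049 peaks with a median score of 62, and the replicate 2 list held 106591 with a median of 30. The score is the authors' own, and its meaning is not stated, so it was read only within a list. Both lists carried promoter peaks at the erythroid genes checked: 8 of 8 in replicate 1 and 6 of 8 in replicate 2, where Hbb-bt and Alas2 had none. Gata1, the erythroid master factor, scored 143 and 57. Of 15 marker genes of other cell types, 7 and 4 had a promoter peak, and Cd4, Pax5, Elane and Ctsg were among those with none in either list. The part of these in the results was not tested.

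A promoter peak is one whose midpoint lay no more than 1000 bp from an annotated start of the gene, taking all its transcripts. Of the 8 genes, 7 had a promoter peak in replicate 1, where 63% of all protein-coding genes did. The same 7 had one in replicate 2, where 48.7% of all protein-coding genes did. Slc25a37 was the exception in both lists. Hotspots gave the same division: 7 of 8 genes had a hotspot at the promoter in each list, against 64.3% of all genes in replicate 1 and 49.3% in replicate 2.

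**Figure D1:**
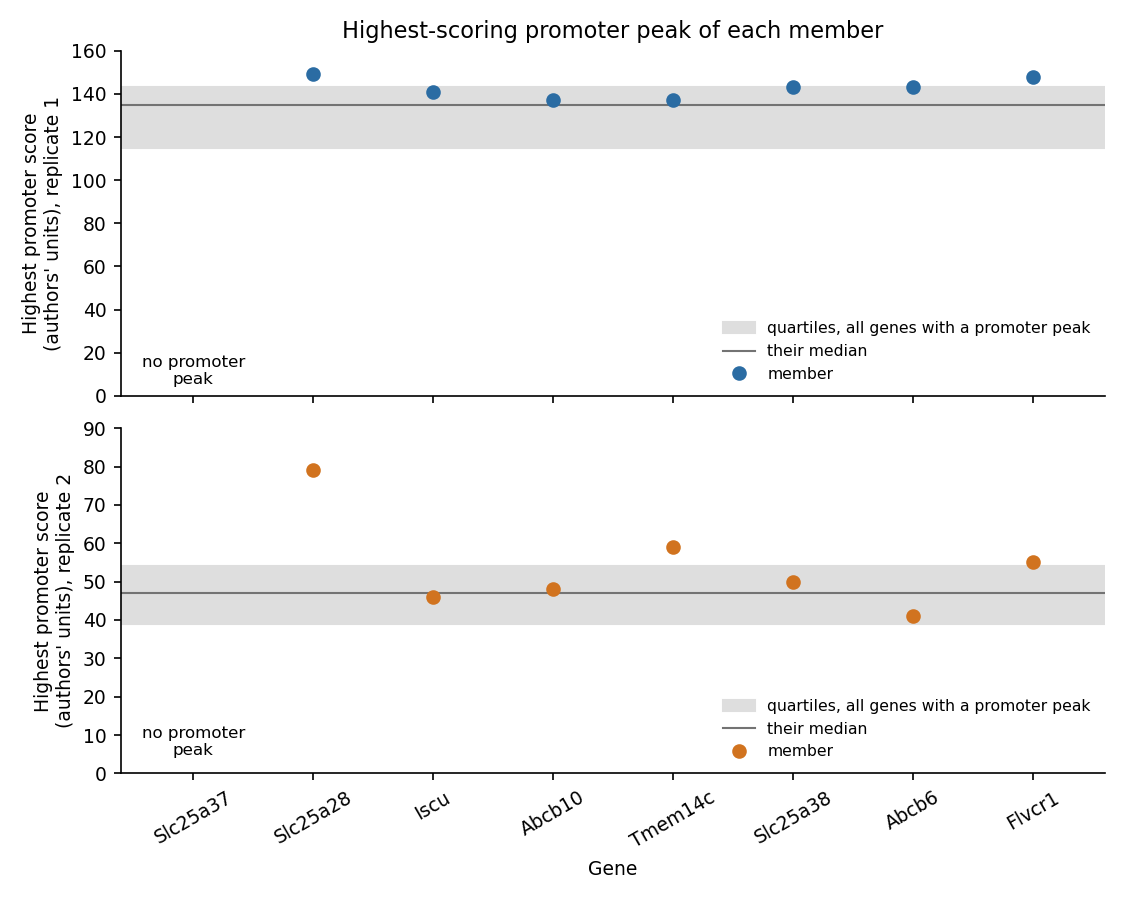
The highest score of a promoter peak (vertical axis, authors' units) for each gene (horizontal axis) in replicate 1 (top) and replicate 2 (bottom), with the median and quartiles of all genes that have a promoter peak. Slc25a28 stands highest in both lists, and Slc25a37 has no promoter peak.

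Sequences are printed first for the sites that the account turns on, each read from mm10 on the strand of its gene. The opening set shows Slc25a37, because the peaks called around it all lie far from its start, outside the repeated DNA described below. Capitals mark a match to the CTCF motif at chr14:69238316-69238465 and at chr14:69241656-69241805, and a GATA match at chr14:69251496-69251645, all on the minus strand.
Slc25a37 at 46722 bp, replicate 1: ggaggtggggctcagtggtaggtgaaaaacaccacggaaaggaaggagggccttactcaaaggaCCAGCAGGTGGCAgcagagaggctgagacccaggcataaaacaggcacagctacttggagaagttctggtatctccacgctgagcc
Slc25a37 at 43382 bp, replicate 1: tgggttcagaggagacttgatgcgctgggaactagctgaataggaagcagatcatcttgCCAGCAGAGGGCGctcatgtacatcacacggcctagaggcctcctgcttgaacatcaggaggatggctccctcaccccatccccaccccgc
Slc25a37 at 33542 bp, replicate 2: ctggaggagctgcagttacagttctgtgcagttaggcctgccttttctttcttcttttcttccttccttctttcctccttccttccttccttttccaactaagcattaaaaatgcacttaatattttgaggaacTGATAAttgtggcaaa

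The next set shows the highest-scoring sites of Slc25a28, the gene with the highest promoter score of the 8 in each list. These lie at chr19:43675016-43675165, chr19:43679636-43679785 and chr19:43679336-43679485, on the minus strand. Capitals mark GATA matches and, in the replicate 1 peak at −4829 bp, also a PU.1 match near its end.
Slc25a28 at −209 bp, replicate 1: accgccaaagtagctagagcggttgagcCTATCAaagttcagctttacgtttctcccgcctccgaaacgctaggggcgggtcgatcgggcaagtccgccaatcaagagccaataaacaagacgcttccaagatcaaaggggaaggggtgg
Slc25a28 at −4829 bp, replicate 1: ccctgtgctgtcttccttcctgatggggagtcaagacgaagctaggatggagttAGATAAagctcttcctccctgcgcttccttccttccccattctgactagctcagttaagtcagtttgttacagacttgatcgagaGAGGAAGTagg
Slc25a28 at −4529 bp, replicate 2: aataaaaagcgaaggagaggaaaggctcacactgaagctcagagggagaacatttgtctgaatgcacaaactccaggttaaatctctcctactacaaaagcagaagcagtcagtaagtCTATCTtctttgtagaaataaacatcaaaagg

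The last set gives sites of other members that hold a motif named below, chosen for the motif, whatever their score. Abcb10 is shown at chr8:123988836-123988985 with a GATA match and at chr8:123982416-123982565 with matches to the metal response element core, both on the minus strand. Tmem14c is shown at chr13:41019076-41019225, plus strand, with a metal response element core. Slc25a38 is shown at chr9:120116316-120116465, plus strand, with a GATA match. Flvcr1 is shown at chr1:191026316-191026465, minus strand, with a GATA match near the 5′ end and an antioxidant response element core near the 3′ end. Abcb6 is shown at chr1:75179376-75179525, minus strand, with an NF-E2 match, and at chr1:75187696-75187845, minus strand, with 3 GATA matches.
Abcb10 at −5788 bp, replicate 1: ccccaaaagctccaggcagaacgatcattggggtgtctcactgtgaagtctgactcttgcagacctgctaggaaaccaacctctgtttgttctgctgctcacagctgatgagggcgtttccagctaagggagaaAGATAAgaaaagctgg
Abcb10 at 632 bp, replicate 2: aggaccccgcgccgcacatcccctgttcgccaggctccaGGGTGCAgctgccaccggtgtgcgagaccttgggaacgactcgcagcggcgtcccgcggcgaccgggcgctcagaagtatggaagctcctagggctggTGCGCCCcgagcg
Tmem14c at 2858 bp, replicate 1: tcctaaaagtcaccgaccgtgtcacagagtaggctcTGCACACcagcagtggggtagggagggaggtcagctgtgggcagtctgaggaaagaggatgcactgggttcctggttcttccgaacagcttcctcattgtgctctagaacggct
Slc25a38 at 6016 bp, replicate 2: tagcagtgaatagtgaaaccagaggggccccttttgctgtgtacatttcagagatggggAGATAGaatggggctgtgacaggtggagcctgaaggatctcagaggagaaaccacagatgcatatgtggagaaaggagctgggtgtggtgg
Flvcr1 at −232 bp, replicate 2: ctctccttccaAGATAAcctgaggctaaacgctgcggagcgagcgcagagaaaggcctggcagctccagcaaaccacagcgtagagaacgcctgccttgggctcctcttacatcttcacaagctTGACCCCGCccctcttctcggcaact
Abcb6 at 942 bp, replicate 1: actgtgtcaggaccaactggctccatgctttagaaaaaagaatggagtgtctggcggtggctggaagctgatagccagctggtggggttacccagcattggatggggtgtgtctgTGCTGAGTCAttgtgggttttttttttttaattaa
Abcb6 at −7378 bp, replicate 2: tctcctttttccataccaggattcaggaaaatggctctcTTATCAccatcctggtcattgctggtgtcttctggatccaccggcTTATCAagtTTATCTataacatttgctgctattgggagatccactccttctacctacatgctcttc

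Distances are from a gene's annotated 5′ end to the midpoint of the peak, positive in the direction of transcription. A motif match is a description of these letters, not evidence of a bound factor.

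Slc25a37 encodes mitoferrin 1, the carrier that brings iron into the mitochondria of erythroid cells. The gene lies at chr14:69241848-69285112 on the minus strand. It had no peak and no hotspot within 1000 bp of any of its 3 annotated starts in either list. All of its peaks, 16 in replicate 1 and 6 in replicate 2, were distal, that is over 1000 bp from the start of any protein-coding gene.

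The start of Slc25a37 lies in DNA that mm10 holds a second time. The stretch chr14:69254285-69335112, which is 80828 bp long and covers all the starts, is 100% identical to chr14:69472535-69553362 in the same orientation. Neither copy held a peak or a hotspot in either list. Within 1000 bp of the starts of Slc25a37, 0% of positions begin a 36-base or 100-base sequence found once in the primary assembly. For the other 7 members that share was 95.3% to 100% with 36 bases. The sources used here do not give how the authors treated reads that match several places.

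All protein-coding genes were then compared by the same measure, in groups not matched for the kind of gene. Of 333 protein-coding genes whose promoters held no 36-base sequence found once, 1 had a promoter peak in each list. Among the 20558 genes with 50% or more of such positions found once, 66.7% and 51.7% had a promoter peak. With 100-base sequences, 0 of 256 genes without any had a promoter peak in either list. The lack of a promoter peak at Slc25a37 therefore cannot be told apart from the lack of sequence found once there.

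In the remaining 62437 bp of the stretch searched, Slc25a37 had 25.6 peaks per 100 kb in replicate 1 and 9.61 in replicate 2. Over the whole stretch, the measure used for the other members and for all genes, the values were 11.2 and 4.19. The higher densities leave out only DNA without a peak. No other gene's density was treated in that way, so they have no like background. Its highest-scoring site lay in intergenic DNA past the 3′ end, at 46722 bp, with a score of 123, and its replicate 2 counterpart scored 48. The next lay at 43382 bp, just beyond the last exon, and scored 99 and 33. Both hold a CTCF match in each list's peak, printed above.

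Within the gene, Slc25a37 had 6 peaks in replicate 1 and 1 in replicate 2. The single site found in both lists lay in intron 1, at 33582 bp in replicate 1 with a score of 81 and at 33542 bp in replicate 2 with a score of 27. The peaks of both lists hold a GATA match. Its intron 1 neighbour at 33022 bp scored 94 in replicate 1 and had no counterpart in replicate 2. Of the 6 replicate 2 peaks of Slc25a37, 5 overlapped a replicate 1 peak.

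**Figure D2:**
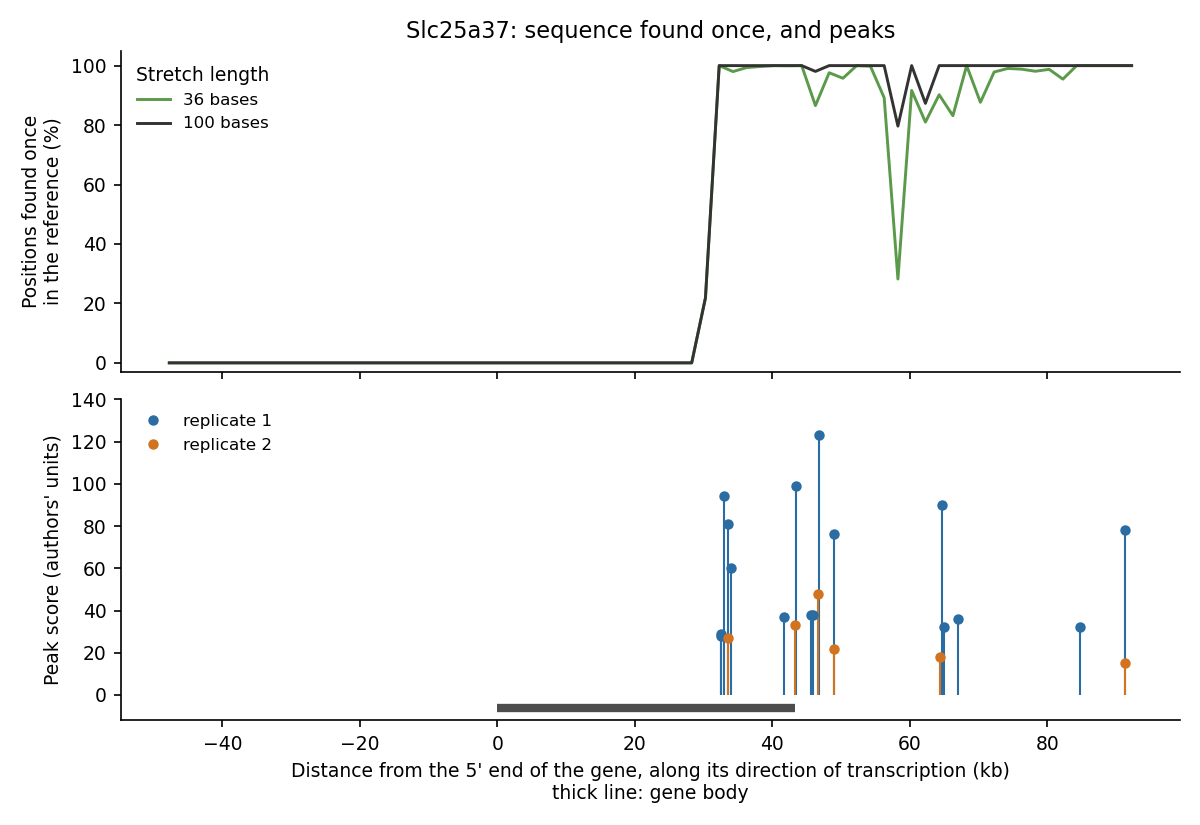
The share of positions found once in the reference in consecutive windows (top, %) and the score of each peak (bottom, authors' units), against distance from the 5′ end of Slc25a37 in kb. All 16 peaks of replicate 1 and all 6 of replicate 2 lie past the stretch where that share is 0.

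Slc25a28 encodes mitoferrin 2, the mitoferrin that is expressed in most tissues. It lies at chr19:43663801-43674881 on the minus strand and had the highest promoter scores of the 8 genes. Its leading promoter peak scored 149 in replicate 1, at −209 bp, and 79 in replicate 2, at −289 bp, and these peaks overlapped. The scores were above those of 97.6% and 99.3% of all protein-coding genes, respectively, counting genes without a promoter peak as lower. The median among all genes with a promoter peak was 135 in replicate 1 and 47 in replicate 2.

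The promoter windows around the 4 annotated starts of Slc25a28 cover 5192 bp. They held 6 peaks in each list. In each list, 2 of them lay upstream of the first start and the others in the gene, near the first start or later ones. The peak at 811 bp, in intron 1, had the identical position in both lists, with scores of 109 and 53. The longest promoter hotspot of Slc25a28 measured 3280 bp in replicate 1 and 1737 bp in replicate 2, and both lists gave it the ceiling value of 100 for −log10 q.

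A second cluster lay upstream of Slc25a28. Its distal peak at −4829 bp scored 149, as high as the promoter, and holds GATA and PU.1 matches. In replicate 2 the leading distal peak was at −4529 bp with a score of 80, which was above the 79 of the promoter, and it also holds a GATA match. The replicate 2 peak at −4969 bp scored 63 and overlapped the replicate 1 peak at −4829 bp. Slc25a28 had 40 distal peaks in replicate 1 and 11 in replicate 2, or 36.01 and 9.90 per 100 kb, more than 97.6% and 88.3% of all protein-coding genes.

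Iscu encodes the scaffold on which mitochondria build iron-sulphur clusters, the other main use of the imported iron. It lies at chr5:113772748-113778288 on the plus strand, head to head with Sart3, a gene of RNA processing. Its leading promoter peak scored 141 at −818 bp in replicate 1 and 46 at −798 bp in replicate 2. That site lies in the UTR of Sart3 and within 1000 bp of a Sart3 start, so it belongs to both promoters. In replicate 2, a second peak at −638 bp had the same score.

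Closer to the start of Iscu, a peak at −38 bp scored 134 in replicate 1. It overlapped a replicate 2 peak at −158 bp with a score of 37. A further site at 1182 bp, in a coding exon near an internal start, had the identical position in both lists and scored 138 and 38. Beyond its promoter, Iscu had 22 distal peaks in replicate 1 and 1 in replicate 2. The lists differed more there than at the other 7 members: its density of distal peaks was above that of 71.1% of all genes in replicate 1 and of 21.4% in replicate 2. The leading distal peak of Iscu in replicate 1, at 4282 bp in a coding exon, scored 129, and the single one of replicate 2, at 3662 bp in intron 3, scored 26.

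Abcb10 encodes an inner-membrane ABC transporter that associates with mitoferrin 1 and is needed for haem synthesis in erythroid cells. It lies at chr8:123952459-123983122 on the minus strand. Its leading promoter peak scored 137 in replicate 1 and lay at 112 bp, in the 5′ UTR. In replicate 2 the leading peak scored 48 and lay at −188 bp, without overlap with any replicate 1 peak. A peak at 632 bp, in a coding exon, had the identical position in both lists, scored 69 and 37, and holds 2 matches to the metal response element core.

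Abcb10 had 32 distal peaks in replicate 1 and 12 in replicate 2, or 24.5 and 9.18 per 100 kb. Of these, 10 and 6 lay within the gene. Its leading distal site in replicate 1 was at −5788 bp, with a score of 144 in replicate 1 and 40 in its replicate 2 counterpart at −5908 bp. The replicate 1 peak holds a GATA match, and the replicate 2 peak, centred 120 bp away, does not. The sites at −24608 bp (136, and 45 in replicate 2) and at 58232 bp (125 and 41) came next in replicate 1 and scored above it in replicate 2. All 3 sites lie in an intron of Gm20388, an annotated protein-coding gene that overlaps the whole region.

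Tmem14c encodes an inner-membrane protein needed for porphyrin intermediates to reach the matrix in erythroid cells. It lies at chr13:41016292-41022586 on the plus strand. Its leading promoter peak scored 137 in replicate 1 at 18 bp and 59 in replicate 2 at 218 bp, and these did not overlap. The replicate 1 score was above 70.7% of all genes and the replicate 2 score above 92.6%, counting genes without a promoter peak as lower. The medians of genes with a promoter peak were 135 and 47.

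Distal peaks were dense around Tmem14c: 34 in replicate 1 and 17 in replicate 2, or 32.0 and 16.0 per 100 kb. These densities exceeded those of 95.4% and 97.7% of all protein-coding genes. In replicate 2 it had the most distal peaks of the 8 members. The site in intron 4, at 2858 bp, had the identical position in both lists and scored 140 and 49. The upstream site at −38462 bp scored 127, and its replicate 2 counterpart at −38482 bp scored 50. The replicate 2 peak at −21762 bp scored 49 and holds a GATA match.

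Slc25a38 encodes the carrier that imports glycine, the substrate of the first step of haem synthesis. It lies at chr9:120110374-120124504 on the plus strand. In replicate 1 its leading promoter peak scored 143 at 436 bp in intron 1, and the peak at 16 bp scored 125. In replicate 2 its only promoter peak scored 50 at 36 bp and overlapped the latter. A distal peak in intron 1, at 5896 bp, scored 133, and its replicate 2 counterpart at 6016 bp scored 37 and holds a GATA match.

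The replicate 2 list was thin around Slc25a38. It held 3 peaks there in all, against 26 in replicate 1, and all 3 overlapped a replicate 1 peak. Slc25a38 had 18 distal peaks in replicate 1 and 2 in replicate 2. The peaks at −9024 bp (score 126) and −27044 bp (score 120) each hold a GATA match and were found in replicate 1 without a counterpart in replicate 2.

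Abcb6 encodes an ABC transporter of porphyrins, described at the outer mitochondrial membrane and at other membranes. It lies at chr1:75171717-75180392 on the minus strand. Its leading promoter peak scored 143 in replicate 1 at −38 bp. In replicate 2 its single promoter peak scored 41 at 182 bp, the lowest promoter score of the 7 genes that had one, and these peaks did not overlap. A further replicate 1 peak at 942 bp, in intron 1, scored 76 and holds an NF-E2 match. That stretch of bases is also counted as an AP-1 match and as an antioxidant response element core.

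Abcb6 sits among closely spaced genes. Of its 39 peaks in replicate 1, 24 lay at promoters of other genes, as did 12 of its 15 in replicate 2. It had 12 distal peaks in replicate 1, the fewest of the 8 members, and 2 in replicate 2. Its leading distal site was in an intron of Atg9a at −7718 bp, with a score of 135, and the replicate 2 counterpart at −7638 bp scored 34. The other distal peak of replicate 2, at −7378 bp in a coding exon of Atg9a, scored 31 and holds 3 GATA matches.

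Flvcr1 encodes a haem exporter of the cell surface, with a shorter form assigned to mitochondria. It lies at chr1:191005847-191026158 on the minus strand. Its leading promoter peak scored 148 in replicate 1 at −152 bp and 55 in replicate 2 at −232 bp, and these overlapped. The scores were above 95.6% and 88.1% of all genes, counting those without a promoter peak as lower. Flvcr1 had 5 promoter peaks in replicate 1 and 7 in replicate 2, the most of the 8 genes in that list. It has 6 annotated starts, whose promoter windows cover 8195 bp, against 2001 bp at Abcb10 and at Tmem14c, which have 1 start each. Its longest promoter hotspot measured 2549 bp in replicate 1 and 2630 bp in replicate 2.

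Flvcr1 had 21 distal peaks in replicate 1 and 7 in replicate 2. The leading one in both lists was in an intron of Nsl1, with a score of 140 at −47072 bp and 49 at −47032 bp. In its own intron 1, the peak at 2808 bp scored 132 and its replicate 2 counterpart scored 25. The replicate 2 peak at −15372 bp, in an intron of Spata45, scored 43 and holds GATA and PU.1 matches.

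**Figure D3:**
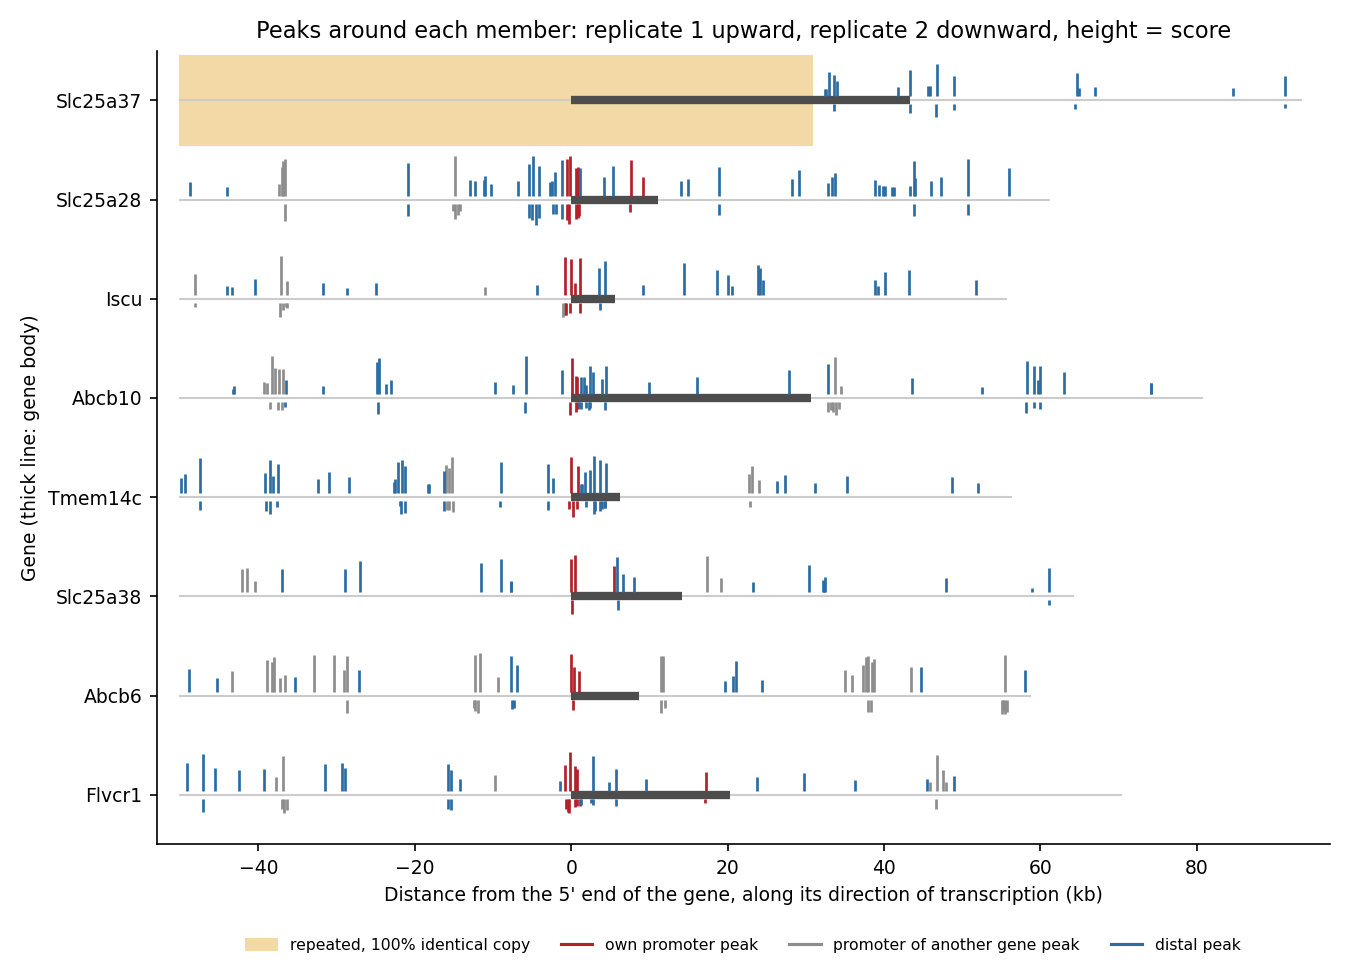
Every peak around the 8 genes by distance from the 5′ end in kb (horizontal axis), with replicate 1 drawn upward and replicate 2 downward, line height proportional to score, and colour giving the class of site. Slc25a37 has no peak over the shaded stretch that is repeated in mm10, whereas each of the other 7 genes has at least 1 peak at its promoter in both lists.

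Among the 7 genes with a promoter peak, the leading scores ran from 137 to 149 in replicate 1, with a median of 143. In replicate 2 they ran from 41 to 79, with a median of 50. The scores of 7 of 7 were above the median of all genes with a promoter peak in replicate 1, and those of 5 of 7 in replicate 2, where Iscu and Abcb6 were below it. The leading peaks of the lists overlapped at 3 of the 7 genes, Slc25a28, Iscu and Flvcr1, against 50.7% of the 10664 genes with a promoter peak in both lists. At Abcb10, Tmem14c, Slc25a38 and Abcb6 they lay 200 to 400 bp apart. The median distance between leading peaks over all those genes was 140 bp.

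The promoter hotspots separated the members in replicate 2. The value of a member is the highest −log10 q among its promoter hotspots. In replicate 1, all 7 reached the ceiling of 100 for −log10 q, where 55.6% of all hotspots of that list stood. In replicate 2, Slc25a28, Abcb10 and Flvcr1 reached it, as did 17.1% of all hotspots of that list. Tmem14c stood at 4.82, Iscu at 3.94, Abcb6 at 2.54 and Slc25a38 at 2.18. Both shares are over single hotspots at any place, so they are not a like background for the best promoter hotspot of a gene. The ceiling in replicate 1 leaves no order of these genes there to set beside that of replicate 2, and the order was not tested.

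The distal sites were spread unevenly. The median was 21.5 distal peaks per member in replicate 1 and 6.5 in replicate 2, against 21 and 5 over all protein-coding genes. Per 100 kb of the stretch searched, the medians were 19.1 and 5.003 for the members and 15.9 and 3.84 for all genes. Slc25a28, Abcb10 and Tmem14c lay above the upper quartile of all genes, which was 21.9 in replicate 1 and 6.95 in replicate 2, in both lists. Iscu, Slc25a38 and Abcb6 lay below the median of all genes in replicate 2. Hotspots covered a median of 12.3% of the stretch around a member in replicate 1 and 4.68% in replicate 2, against 8.02% and 2.34% over all genes. This cover counts every hotspot in the stretch, those at promoters included, and so is not a measure of distal sites alone.

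**Figure D4:**
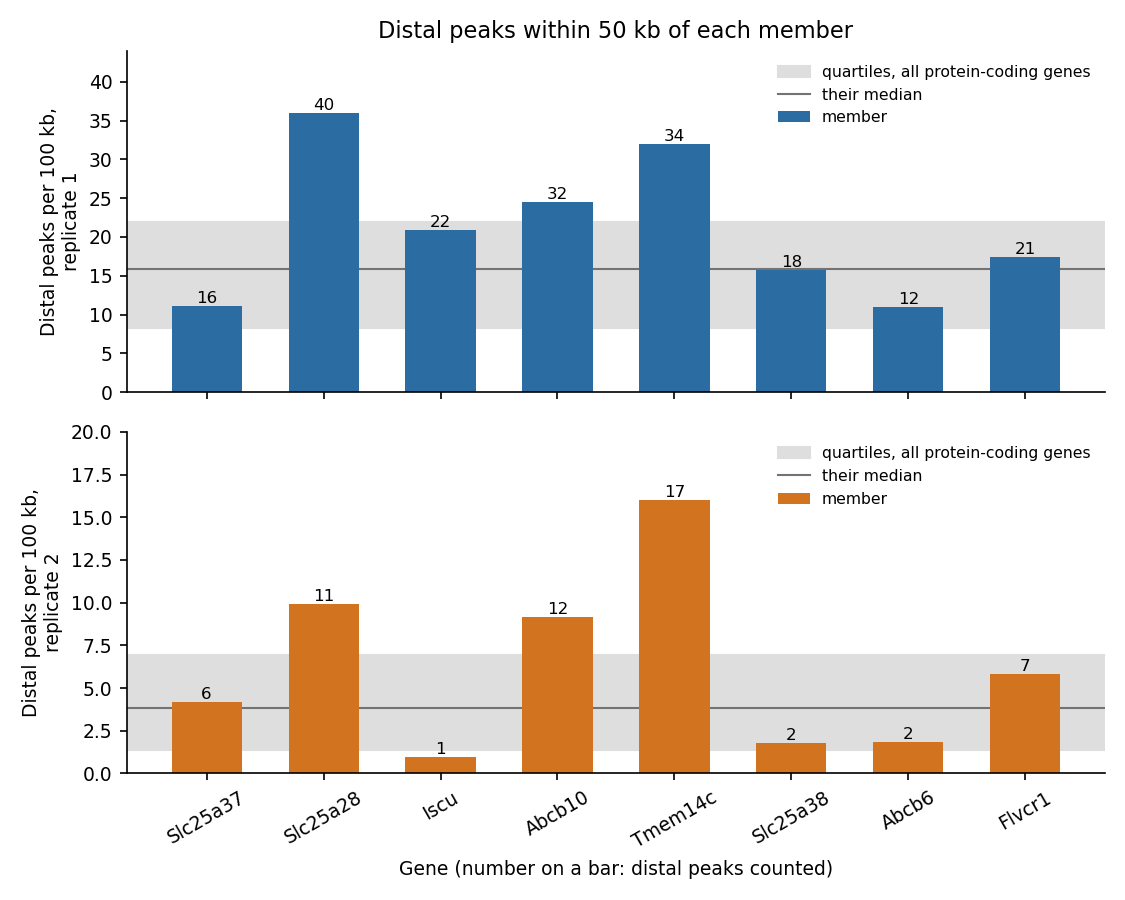
Distal peaks per 100 kb of the stretch searched (vertical axis) for each gene (horizontal axis) in replicate 1 (top) and replicate 2 (bottom), with the median and quartiles of all protein-coding genes and the number of peaks on each bar. The bars of Slc25a28, Abcb10 and Tmem14c rise above the quartile band in both lists.

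Around the 8 genes, 81 of 280 replicate 1 peaks (28.9%, 95% Wilson interval 23.9 to 34.5%) overlapped a replicate 2 peak, against 23.6% of all replicate 1 peaks. In the other direction it was 82 of 122 (67.2%, 58.5 to 74.9%), against 70.6% of all replicate 2 peaks. These intervals reflect counting error alone, and peaks close together are not independent. Of the distal peaks, 48 of 195 in replicate 1 (24.6%) and 47 of 58 in replicate 2 (81.0%) had a counterpart, against 20.5% and 73.4% of all distal peaks. At the members' own promoters the counts were 17 of 26 in replicate 1 (65.4%) and 18 of 25 in replicate 2 (72%), against 42.4% and 63.4% of all promoter peaks. By gene, the replicate 2 peaks with a counterpart were 5 of 6 at Slc25a37, 18 of 22 at Slc25a28, 7 of 11 at Iscu and 14 of 23 at Abcb10. They were 17 of 24 at Tmem14c, 3 of 3 at Slc25a38, 6 of 15 at Abcb6 and 12 of 18 at Flvcr1.

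The peaks were searched on both strands for motifs of factors known in erythroid and stress biology. The antioxidant response element core, TGACNNNGC, is the sequence through which BACH1 and NRF2 regulate haem and iron genes. It stood in 7 of 26 promoter peaks of the members in replicate 1 (26.9%, 95% Wilson interval 13.7 to 46.1%), against 7.05% of all promoter peaks. In replicate 2 it stood in 4 of 25 (16%, 6.40 to 34.7%), against 6.31%. The peaks with a match belonged to 5 of the 8 genes, and 3 of the 7 in replicate 1 and 3 of the 4 in replicate 2 were at Slc25a28. Peaks of 1 promoter share sequence and regulation, and 11 motifs were compared, so these shares are a description without a test. The members' promoter peaks held a median of 8 and 7 CpG in the 2 lists, against 4 and 5 over all promoter peaks. Their median GC content was 56.7% and 53.3%, against 54.7% and 53.3%. The part of base composition in the motif shares was not tested.

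The 7 matches are shown with 10 bases on either side, to let the core and its flanks be compared. Capitals mark the core, and each is printed on the strand on which it reads TGAC first. At Slc25a28 they lie at chr19:43674030-43674058 (minus strand), chr19:43674285-43674313 (plus strand) and chr19:43675402-43675430 (minus strand). The others are at chr5:113772697-113772725 (minus strand), chr9:120110317-120110345 (minus strand), chr1:75179391-75179419 (plus strand) and chr1:191026323-191026351 (minus strand). Distances are from the nearest annotated start of the gene.
Slc25a28 at 816 bp: tcctttaaagTGACGGGGCaggaaccgga
Slc25a28 at 561 bp: tcctggttccTGACTGAGCtcatctacca
Slc25a28 at −535 bp: gggtccgggcTGACTCCGCccccgcctga
Iscu at −37 bp: acgccccctcTGACCGCGCcctcggaagg
Slc25a38 at −43 bp: ccgcttccggTGACATAGCgtatccggcg
Abcb6 at −456 bp: aaacccacaaTGACTCAGCacagacacac
Flvcr1 at −179 bp: ttcacaagctTGACCCCGCccctcttctc

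The matches at Slc25a28 and Flvcr1 lay in peaks of both lists, and those at Iscu, Slc25a38 and Abcb6 in replicate 1 peaks. Abcb10 and Tmem14c had none in a promoter peak. In the distal peaks of the members the core stood in 9.23% in replicate 1 and 1.72% in replicate 2, against 5.996% and 5.53% of all distal peaks.

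GATA matches (AGATAA or AGATAG or TGATAA or TGATAG) are the letters bound by GATA1 in erythroid cells. They stood in 7 of 26 promoter peaks of the members in replicate 1 (26.9%, 13.7 to 46.1%) and 8 of 25 in replicate 2 (32%, 17.2 to 51.6%), against 16.1% and 15.8% of all promoter peaks. In distal peaks the shares were 21.03% (41 of 195, 15.9 to 27.3%) and 25.9% (15 of 58, 16.3 to 38.4%), against 26.4% and 28.2%. The promoter peaks with a GATA match were at Slc25a28 and Flvcr1 in both lists, at Slc25a38 and Abcb6 in replicate 1, and at Abcb10 in replicate 2.

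The metal response element core (TGCACNC or TGCGCNC) is part of the site of MTF1, the zinc-sensing transcription factor. It stood in 23.1% of the members' promoter peaks in replicate 1 (6 of 26, 11.03 to 42.1%) and 20% in replicate 2 (5 of 25, 8.86 to 39.1%), against 15.3% and 14.5% of all promoter peaks. Abcb10 held 4 of these matches in 2 peaks in replicate 1. The background shares lay inside the intervals in both lists.

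The PU.1 motif (GAGGAAGT), of a myeloid and lymphoid factor that MEL cells also express, stood in 0 of 26 and 0 of 25 promoter peaks of the members, against 4.35% and 2.14% of all promoter peaks. With so few peaks, the intervals reached 12.9% and 13.3%. In distal peaks it stood in 8.72% and 3.45%, against 9.15% and 5.81%. The CACC box of KLF1 (CCNCNCCC) stood in 38.5% and 24% of promoter peaks, against 32.4% and 26.2%. CTCF matches stood in 8.72% and 6.90% of distal peaks, against 5.65% and 5.30%. The shares for ETS (CCGGAAG), E-box (CAGNTG) and AP-1 (TGANTCA) are plotted with the others.

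**Figure D5:**
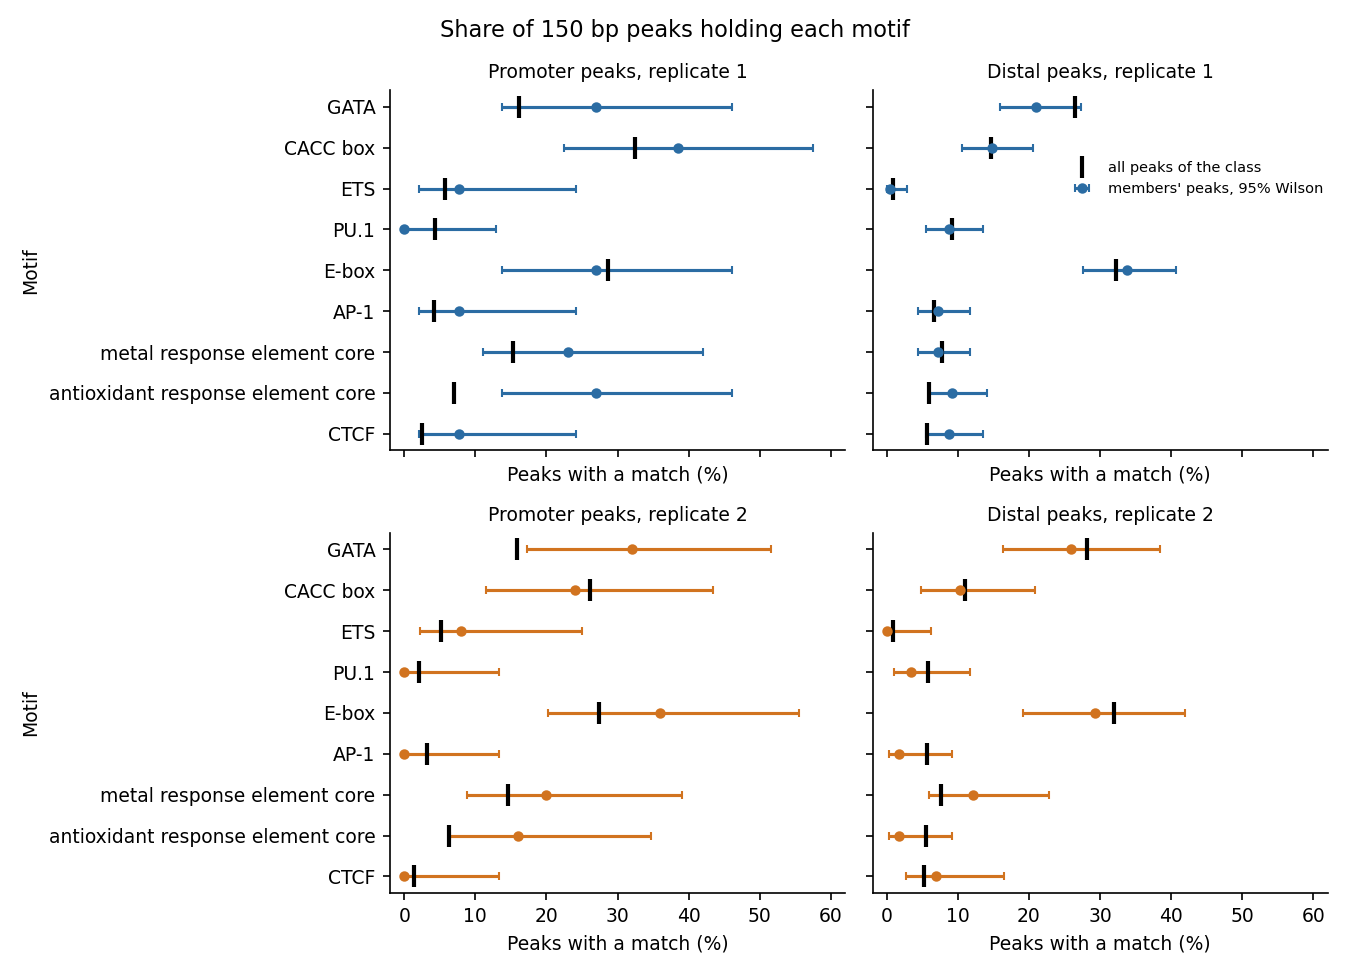
The share of 150 bp peaks that hold each motif (horizontal axis, %) for the promoter peaks (left) and distal peaks (right) of the members, with 95% Wilson intervals, in replicate 1 (top) and replicate 2 (bottom). Vertical ticks give the share over all peaks of the class, which were not matched to the members' peaks for base composition. In promoter peaks, the antioxidant response element core, GATA, the metal response element core and ETS lie to the right of their ticks in both lists.

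RefSeq promoter windows of GRCm38.p6 were matched for 6 of the 8 genes, and those of Slc25a37 and Iscu were not matched. The antioxidant response element core stood in 2 of 6 windows, those of Flvcr1 and Slc25a38, against 12.4% of the 32851 windows searched. It was not found in the windows of Slc25a28 and Abcb6, whose promoter peaks hold it. A GATA match stood in the window of Slc25a28 alone, against 29.8% of windows. The metal response element core stood in 3 of 6 against 25.7%, the CACC box in 5 of 6 against 49.5% and the E-box in 2 of 6 against 51.4%. Each remaining motif stood in at most 1 of the 6.

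The members were set beside other genes of the same pathways. For scale, 63% of all protein-coding genes were called at the promoter in the replicate 1 list, against 48.7% for replicate 2. Promoter peaks were found at 9 of 9 haem synthesis genes in replicate 1 and 8 of 9 in replicate 2, where Alas2, the erythroid first enzyme of the pathway, had none and scored 92 in replicate 1. The highest replicate 2 scores of that list were 73 at Alad, 62 at Ppox and 62 at Uros. Of 18 iron-sulphur cluster and mitochondrial iron genes matched, 17 had a promoter peak in each list, and Ftmt, the mitochondrial ferritin, had none. The highest there were Abcb8 with 67, Fdx1l with 59 and Fdxr with 59. Of 18 genes of haem and porphyrin carriers and iron handling, 17 and 16 had one. Hmox1 scored 141 at its promoter in replicate 1 but was not called there in the other list. Flvcr2, a relative of Flvcr1, had none in either list, and the highest were Aco1 with 61, Tspo with 56 and Ireb2 with 52. The 79 of Slc25a28 exceeded every replicate 2 promoter score in these 3 lists.

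For each member, the most alike of the 45 pathway genes was found by the mean absolute difference of 4 percentiles, those of promoter score and distal count in each list. The distal count was not scaled to the stretch searched, which is longer around longer genes. The closest pair was Slc25a28 and Alad, at 5.20 percentile points. Iscu was closest to Fdxr (5.92), Tmem14c to Lyrm4 (6.12), Abcb10 to Tfrc (6.67), Flvcr1 to Slc25a39 (6.67), Slc25a38 to Ireb2 (7.59) and Abcb6 to Pgrmc2 (9.65). Slc25a37 was farthest from any, at 11.7 from Flvcr2, and its values include the repeated stretch, which held no peak.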

How the data were processed

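DNase-seq of 3 libraries of zinc-treated MEL cells was used as the peak and hotspot lists the authors deposited, aligned to mm10 per the labels. For the aligner, the caller and their filters, the sources used here give nothing. The whole-series lists were read as biological replicate 1 (2 libraries) and the remaining lists as biological replicate 2 (1 library), since the deposited text records of both replicate 1 libraries name the former. The score of each peak is a whole number deposited by the authors without a stated meaning, used to rank and filter within a list. For hotspots the authors deposited a q value as its −log10, with a ceiling of 100. The files give no read counts, so depth is unknown. Nothing in the labels says whether the replicates were separate cultures.

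Peaks were placed by their midpoint: own promoter (within 1000 bp of any GENCODE start of the gene), promoter of another protein-coding gene, or distal, within 50000 bp of the gene body. Positions are 1-based, and 84 of 84 comparisons of a list with a chromosome lay within the GRCm38 lengths. Peaks off the main chromosomes (452 and 312) were left out. A percentile is the percent of all protein-coding genes with a lower value. For promoter scores, genes without a promoter peak were given a value of 0. Overlap was at least 1 bp. Sequence found once was counted for 36 and 100 bases on both strands of the primary assembly, and the copy was aligned with minimap2 2.31. Python 3.11.15, pandas 2.3.3, numpy 2.4.6, scipy 1.17.1 and pysam 0.24.0 were used, and the counting was tested on simulated peaks. No test was run: there is 1 group, and the scores of its 2 lists are not known to share a scale, so the lists are given side by side. Values are set beside those of all genes or peaks, and alternative windows, flanks, score limits and overlaps were tried.

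All 8 members are named, with their leading promoter peak and up to 3 leading distal peaks per list. From 3 pathway lists, the genes named are those with the highest replicate 2 promoter scores or no promoter peak, and the gene most like each member. Sites beyond this rule, and the pathway genes without a replicate 2 peak, were chosen after their values were seen. The members and lists were chosen with earlier results of these data known. Fdx2 was not matched by symbol.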

Additional observations from a re-analysis of the deposited data

How the results depend on the processing

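The number of members with a promoter peak was 7 in each list and 7 in either list. It stayed at 7 with windows of 500 and 2000 bp, with any overlap in place of the midpoint, with the highest-scoring 50% of peaks, with starts of protein-coding transcripts alone, with as many replicate 1 peaks as replicate 2 holds, and without either replicate. All 32 alternatives for the promoter score of a single member stayed within 1.5 times its value.

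Of 38 alternatives for the summary values, 28 stayed close and 10 moved, and the cause was not tested beyond what each setting itself changes. The median of distal peaks per member, 21.5 in replicate 1, became 11.5 within 20000 bp, 42.5 within 100000 bp, 11 with the highest-scoring 50% of peaks and 9 with as many peaks as replicate 2. In replicate 2, 6.5 became 14 within 100000 bp and 2.5 with the highest-scoring 50%. Requiring 50% of both peaks lowered the overlap to 47.5% of replicate 2 peaks and 20.7% of replicate 1 peaks. Hotspots at the highest value alone covered 1.20% of the stretch in replicate 2. In 300 bp centred on the peak, 41.0% of the members' replicate 1 distal peaks held a GATA match. The share over all distal peaks is given only for 150 bp, so the members' share in 300 bp has no like background. Leaving out Slc25a37, an alternative chosen after seeing the data, gave medians of 22 and 7 distal peaks. No paired analysis was possible because there is 1 group.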
